A study of Mus musculus with 29 samples.

Results

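The genes described here are the haemoglobin genes whose names begin with Hba- or Hbb-, together with Alas2, as listed in the 4 gene tables of a mouse RNA-seq study of contextual fear conditioning. The rule found 5 genes among the 15672 listed in any of these tables: Hba-a1, Hba-a2, Hbb-b1, Hbb-b2 and Alas2, and each of the 5 is listed in all 4 tables. The GENCODE M21 annotation holds 12 gene names that begin with Hba- or Hbb-, pseudogenes and embryonic genes included; the other 8 were not analysed here. The study sampled CA1, a field of the hippocampus, and the anterior cingulate cortex (ACC) of male mice, housed singly, with an age of 3 months and a strain written as C56BL/6 in the labels. The CA1 libraries comprised 5 naive, 5 taken 1 h after exposure to a new context and 4 taken 1 h after the context with a footshock of 0.7 mA. The ACC libraries comprised 5 naive, 5 taken 4 weeks after context and 5 taken 4 weeks after context with footshock. All groups carried no genetic change named in the labels, and all libraries were made from polyadenylated RNA of whole dissected tissue. The labels do not say whether the mice were perfused before dissection.

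Haemoglobin is the oxygen carrier of red blood cells and is built from alpha and beta globin chains around haem. In the adult mouse the alpha chains come from Hba-a1 and Hba-a2 and the beta chains from the genes called Hbb-b1 and Hbb-b2 here, which GENCODE M21 names Hbb-bs and Hbb-bt. Alas2 encodes the erythroid form of 5-aminolevulinate synthase, which starts haem synthesis in red cell precursors, while Alas1 serves the other tissues. Mouse reticulocytes keep globin and Alas2 mRNA, so these transcripts are commonly read as blood held in a dissected tissue, although globin mRNA has also been described in some neurons and glia. In bulk tissue RNA, fewer cells of a type and less RNA per cell cannot be told apart.

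The sequences of the globin genes bear on how far the 4 of them can be told apart, because each chain has a pair of nearly identical copies. The coding sequences of Hba-a1 and Hba-a2 are 429 bases long each and differ at 1 base. Those of Hbb-b1 and Hbb-b2 are 444 bases long each and also differ at 1 base. The stretches of exon 3 that hold this base are given below 5′ to 3′ from GENCODE M21 transcripts (GRCm38, the build also called mm10), with the differing base in capitals.
Hba-a1 (chr11:32284298-32284387, plus strand): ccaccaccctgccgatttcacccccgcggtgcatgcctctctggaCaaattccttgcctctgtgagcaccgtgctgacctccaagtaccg
Hba-a2 (chr11:32297115-32297204, plus strand): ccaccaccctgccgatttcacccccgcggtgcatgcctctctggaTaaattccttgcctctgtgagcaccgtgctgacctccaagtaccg
Hbb-b1 (chr7:103826668-103826757, minus strand): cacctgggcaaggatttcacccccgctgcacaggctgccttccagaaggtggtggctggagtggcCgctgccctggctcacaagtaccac
Hbb-b2 (chr7:103812659-103812748, minus strand): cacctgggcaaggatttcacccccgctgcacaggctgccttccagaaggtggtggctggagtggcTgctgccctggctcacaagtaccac
Of all windows of 50 bases in the Hba-a2 transcript 86.9% also occur in Hba-a1, and 67.5% of those of Hba-a1 occur in Hba-a2. Of the windows of Hbb-b1 65.8% also occur in Hbb-b2, and 58.3% of those of Hbb-b2 occur in Hbb-b1. In Alas2, which has no such copy, 0% of the windows of 50 bases occur in a transcript of another gene. No source used here gives the read length or the treatment of reads that match both copies, so the split of reads within a pair is uncertain. Levels, ranks and errors given per copy below carry this limit, and differences between the copies of 1 chain were not tested.

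The start regions of the adult globin genes carry the boxes known from globin promoters, of which an alpha and a beta example are shown because these genes are regulated together in red cell precursors. Each is the 120 bases before the RefSeq start (GRCm38.p6), 5′ to 3′ on the gene's strand, with the matched letters of the searched boxes in capitals.
Hba-a2 (chr11:32296372-32296491, plus strand): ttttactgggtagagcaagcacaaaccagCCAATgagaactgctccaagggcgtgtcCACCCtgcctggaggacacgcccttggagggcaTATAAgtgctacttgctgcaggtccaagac
Hbb-b1 (chr7:103827929-103828048, minus strand): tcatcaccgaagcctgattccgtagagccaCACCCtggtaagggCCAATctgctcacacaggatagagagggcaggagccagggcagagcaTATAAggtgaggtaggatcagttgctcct
Boxes were searched on both strands. The CACCC box, the CCAAT box and the TATAA box were searched by these letters, and the GATA box as AGATAA or as TGATAA. The marked matches do not overlap. In the 250 bases before the start, CACCC was present in 5 of the 5 genes and in 52% of all RefSeq promoters in the table, TATAA in 5 of 5 and 22.8%, CCAAT in 4 of 5 (not Alas2) and 33.8%, and a GATA box in 4 of 5 (not Hbb-b2) and 16.6%. In the last 120 of these bases Alas2 had no TATAA match, and Alas2 alone had a GATA match. The start regions of Hba-a1 and Hba-a2 are nearly identical, so the 5 genes are not 5 separate observations. A match describes the letters and not a bound site.

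For each gene and comparison with naive mice of the same region, the files give the authors' base mean of normalised counts, the log2 fold change and its p-value, raw and adjusted. They hold no value per library, so neither the depth of a library nor the spread between single mice can be shown, and the SE of each fold change was implied from the fold change and its p. Positive values mean higher in trained mice, since base means of a region's shock table, relative to its context table, followed the fold changes (slope 0.47 in CA1 and 0.52 in ACC). Genes below an adjusted p of 0.05 are described as called. All 10 neuronal markers examined, among them Rbfox3 and Snap25, and 8 of 8 CA1 markers in CA1 and 12 of 12 cortical layer markers in ACC were listed. The 12 cortical layer markers were all listed in CA1 as well. Of the 8 CA1 markers, 7 were listed in ACC after context and 8 after shock. Being listed thus does not tell the regions apart. Some of these markers were called. Of the 12 cortical layer markers 2 were higher and 4 lower in CA1 after shock (median log2 fold change -0.17), 50% beside 6.05% of all genes. In ACC after shock 1 was higher and 4 lower, 41.7% beside 41.6% of all genes. Of the 10 neuronal markers none was called in CA1. In ACC after context 0 were higher and 2 lower, 20% beside 19.6% of all genes (none with a length and GC trend subtracted). In ACC after shock 2 neuronal markers were higher and 4 lower, 60% beside 41.6%. Of the 8 CA1 markers 1 was higher in CA1 after context, 12.5% beside 8.03% of all genes. In CA1 after shock 1 CA1 marker was higher and 1 lower, 25% beside 6.05%. The part of tissue content in the globin values was not tested.

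The beta globin gene Hbb-b1 (chromosome 7, 103826534 to 103828096) was the most abundant of the 5 genes per transcript length. Its base mean was 526 normalised counts in the CA1 context table, 511 in the CA1 shock table, 746 in the ACC context table and 683 in the ACC shock table, each in the authors' deposited table. In the CA1 context table this was 838 normalised counts per kb of transcript, against 148 for Hbb-b2, 131 for Hba-a1, 123 for Hba-a2 and 20.4 for Alas2. Base means of Hbb-b2 (chromosome 7, 103812524 to 103813996) were 102 to 142, of Hba-a1 (chromosome 11, 32283511 to 32284465) 84.5 to 109, of Hba-a2 (chromosome 11, 32296489 to 32297298) 59.3 to 78.7 and of Alas2 (chromosome X, 150547375 to 150570638) 33.3 to 46.2 across the authors' deposited tables. The order of the 5 genes was the same in the 4 tables, per kb of transcript as well. The 4 globin genes together made up 0.00443 to 0.0058 percent of the summed base means of all listed genes. Counted against only those windows of 50 bases that no other gene shares, the CA1 context base mean came to 266 per 100 windows for Hbb-b1, 103 for Hba-a2, 43.5 for Hba-a1 and 38.2 for Hbb-b2, so the order below Hbb-b1 depended on how shared sequence was treated.

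None of the 5 genes was called in any of the 4 comparisons with naive mice. The share of all genes called was 8.03% in CA1 after context, made up of 4.62% higher and 3.41% lower, and 6.05% in CA1 after shock (3.21% higher and 2.84% lower). It was 19.6% in ACC after context (9.37% higher and 10.2% lower) and 41.6% in ACC after shock (19.8% higher and 21.8% lower). At an adjusted p under 0.1 the shares were 11.8%, 9.29%, 25.3% and 47.6%, and under 0.01 they were 3.43%, 2.88%, 11.8% and 32.2%, in the same order; 1 member value, Alas2 in ACC after shock, was under 0.1. Before adjustment 3 of the 20 fold changes had a p under 0.05 in the authors' deposited tables, 1 in each comparison except CA1 after context. Over all genes the share with an unadjusted p under 0.05 was 21.2%, 18.7%, 31.3% and 48.0% in the order of the comparisons above. The direction of the 5 fold changes differed between the comparisons, as described next (the plot of fold changes with their intervals).

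**Figure D1:**
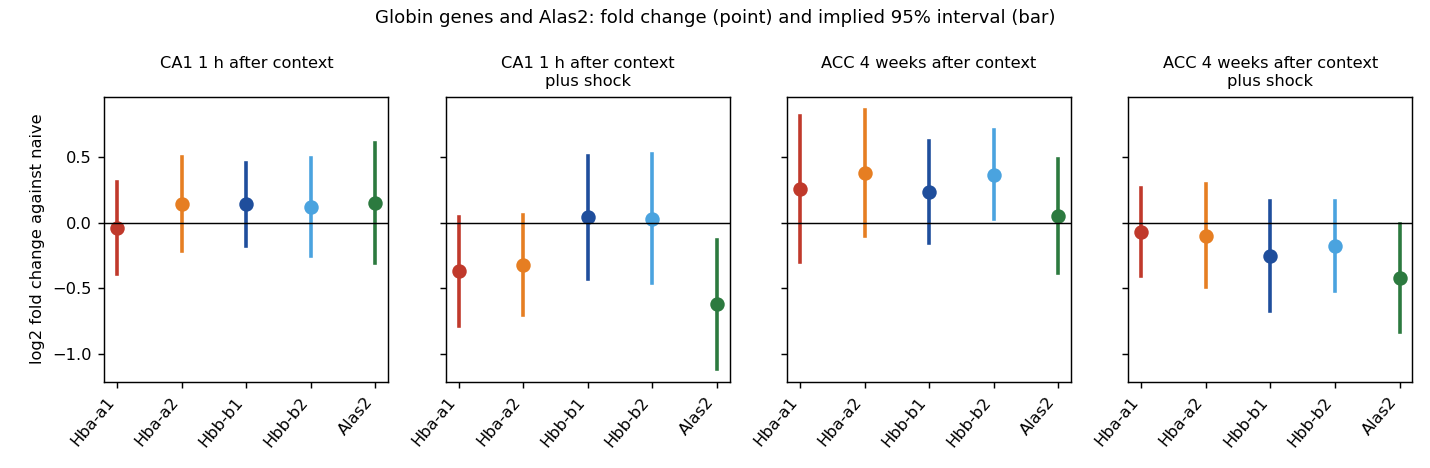
Log2 fold change against naive mice of the same region (vertical axis) of the 4 globin genes and Alas2 in the 4 comparisons (panels); points are the authors' deposited values and bars the 95% intervals implied by their p. All intervals reach 0 except those of Alas2 in CA1 after shock (-1.11 to -0.13) and ACC after shock (-0.83 to -0.0064) and of Hbb-b2 in ACC after context (0.029 to 0.70), and none of these passed the adjusted threshold.

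The first comparison asked whether the blood transcripts of CA1 differed 1 h after a new context. The 5 fold changes lay close to 0, 4 above and 1 below, with a median of 0.14 on the log2 scale against -0.0036 over all genes. The authors' deposited table gave Hbb-b1 a log2 change of 0.14 (95% interval -0.17 to 0.45, adjusted p = 0.681). The group levels that the base mean and fold change imply were 501 normalised counts in naive mice and 552 after context. The authors' deposited table gave Hba-a1 a log2 change of -0.039 (interval -0.39 to 0.31) and Hba-a2 of 0.14 (-0.22 to 0.50). For Alas2 the log2 fold change was 0.15 in the authors' deposited table (interval -0.31 to 0.61, adjusted p = 0.782). Adjusted p-values of the 5 genes were 0.681 to 0.936 in the authors' deposited table.

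In CA1 1 h after context plus shock the alpha globin genes and Alas2 lay below naive mice, while the beta globin genes stood at about the naive level, and no member was called. Alas2 had the lowest value, a log2 fold change of -0.62 (interval -1.11 to -0.13, p = 0.0134, adjusted p = 0.126) per the authors' deposited table. Within that table its implied group level was 39.4 normalised counts in naive mice and 25.7 after shock, 0.65 times the naive level. The authors' deposited table gave Hba-a1 a log2 change of -0.37 (adjusted p = 0.343) and Hba-a2 of -0.32 (adjusted p = 0.381). Hbb-b1 was at 0.04 (interval -0.43 to 0.51) and Hbb-b2 at 0.03 (-0.46 to 0.52) on the log2 scale, per the authors' deposited table, which is rounded to 2 decimals. The Alas2 value was lower than that of all but 1.74% of genes in this table, Hba-a1 than all but 5.80% and Hba-a2 than all but 7.40%, whereas Hbb-b1 and Hbb-b2 lay near the middle, above 61.1% and 58.4% of genes. Whether alpha and beta genes differed from each other was not tested, since values per library are needed for it.

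In ACC 4 weeks after context all 5 fold changes were above 0, with a median of 0.26 against 0.0036 over all genes, and none was called. Hba-a2 had the highest log2 fold change, 0.38 in the authors' deposited table (interval -0.10 to 0.86, adjusted p = 0.292). Hbb-b2 had 0.37 (interval 0.029 to 0.70, p = 0.0331, adjusted p = 0.119) and Hbb-b1 0.23 (interval -0.16 to 0.62, adjusted p = 0.455) per the authors' deposited table. For Hbb-b1 the implied level was 686 normalised counts in naive mice and 806 after context. Alas2 stood at 0.054 on the log2 scale, per the authors' deposited table (interval -0.38 to 0.49). Fold changes in ACC followed transcript length and GC content across all genes, and globin transcripts are short. With that trend subtracted the values moved to 0.082 for Hba-a1, 0.20 for Hba-a2, 0.051 for Hbb-b1 and 0.19 for Hbb-b2, and Alas2 turned to -0.046.

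In ACC 4 weeks after context plus shock all 5 fold changes were below 0, with a median of -0.18 against 0.0063 over all genes. None was called, in the comparison where 41.6% of all genes were. The authors' deposited table gave Alas2 a log2 change of -0.42 (interval -0.83 to -0.0064, p = 0.0465, adjusted p = 0.0981), with implied levels within that table of 49.4 normalised counts in naive mice and 36.9 after shock. Hbb-b1 had -0.25 (interval -0.67 to 0.17, adjusted p = 0.359) and Hbb-b2 -0.18 (adjusted p = 0.445) per the authors' deposited table. Hba-a2 stood at -0.10 and Hba-a1 at -0.070 per the authors' deposited table (adjusted p = 0.730 and 0.784). With the length and GC trend subtracted all 5 values lay lower, between -0.32 and -0.56, and Alas2 passed the threshold (log2 -0.56, adjusted p = 0.0366). The labels give 1 age for all groups, so in ACC the 4 weeks of waiting cannot be told apart from training.

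**Figure D2:**
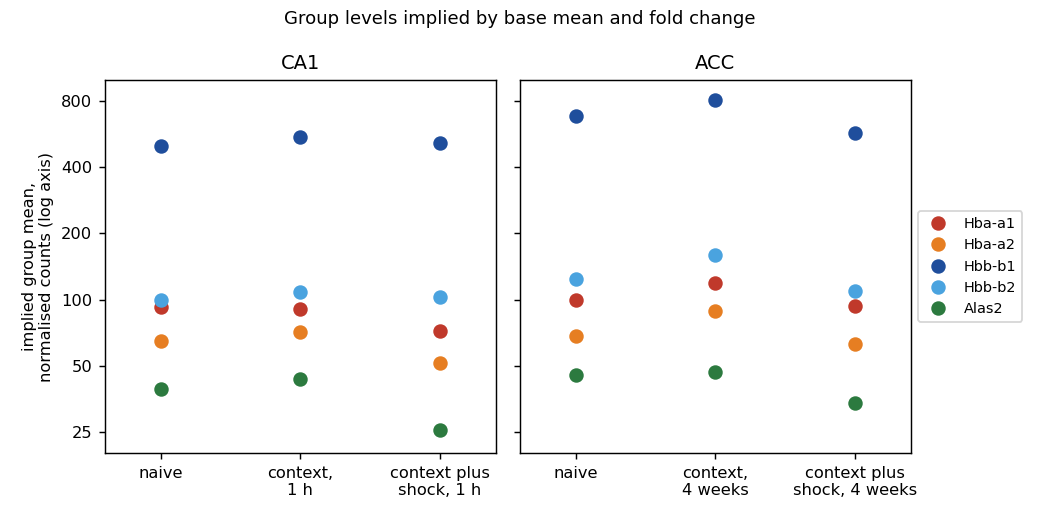
Mean level of each gene in the naive, context and context plus shock groups (horizontal axis) of CA1 and ACC, in normalised counts on a log axis, as implied by base mean and fold change; there is no error bar because no value per library is given. Hbb-b1 was at 501, 552 and 514 in CA1 and at 686, 806 and 571 in ACC, with the shock level put on the scale of the context table.

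The implied levels could be checked, since both tables of a region share the naive mice. Over genes with a base mean of at least 50, the naive level from the shock table was 1.01 times that from the context table in CA1 (5th to 95th percentile 1.00 to 1.01) and 1.09 times in ACC (1.09 to 1.10). After this scale was taken out, the naive levels of the 5 genes from both tables differed by at most 1.28%. The summed implied level of Hbb-b1 and Hbb-b2 was 3.81 times that of Hba-a1 and Hba-a2 in naive CA1, 4.08 times after context and 4.98 times after shock. In ACC the same ratio was 4.83 in naive mice, 4.64 after context and 4.33 after shock. These ratios are not per length and rest on how reads shared between genes were counted, and their differences were not tested.

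The error of the fold change was wide for the globin genes relative to their level. The implied SE of Hbb-b1 was 0.16 in CA1 after context, 0.24 in CA1 after shock, 0.20 in ACC after context and 0.21 in ACC after shock. Genes with a base mean within 1.25-fold of Hbb-b1 had a median SE of 0.078, 0.086, 0.070 and 0.057 in the same order. The SE of Hbb-b1 was thus 2.04 to 3.75 times that of genes of its level and larger than that of 97.8% to 99.8% of them. For Hbb-b2 the ratio was 1.37 to 1.66, for Hba-a1 1.21 to 2.17, for Hba-a2 1.02 to 1.64 and for Alas2 1.04 to 1.18. All 20 member errors were above the median of genes of like level. With such errors a change in Hbb-b1 would have been called only from 1.38-fold (CA1 after context) to 1.64-fold (CA1 after shock) upwards, so smaller differences in Hbb-b1 were not detectable here. For the other members the smallest fold that would have been called was 1.31 to 1.67 (Hba-a1), 1.38 to 1.55 (Hba-a2), 1.32 to 1.68 (Hbb-b2) and 1.40 to 1.67 (Alas2) over the 4 comparisons. In CA1 after shock the deposited fold changes are rounded to 2 decimals. The SE of Hbb-b1 (log2 0.04) and Hbb-b2 (0.03) there, and the ratios and folds drawn from them, are therefore approximate. An SE of this kind holds the spread between libraries and the counting error together, and the files do not separate them.

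**Figure D3:**
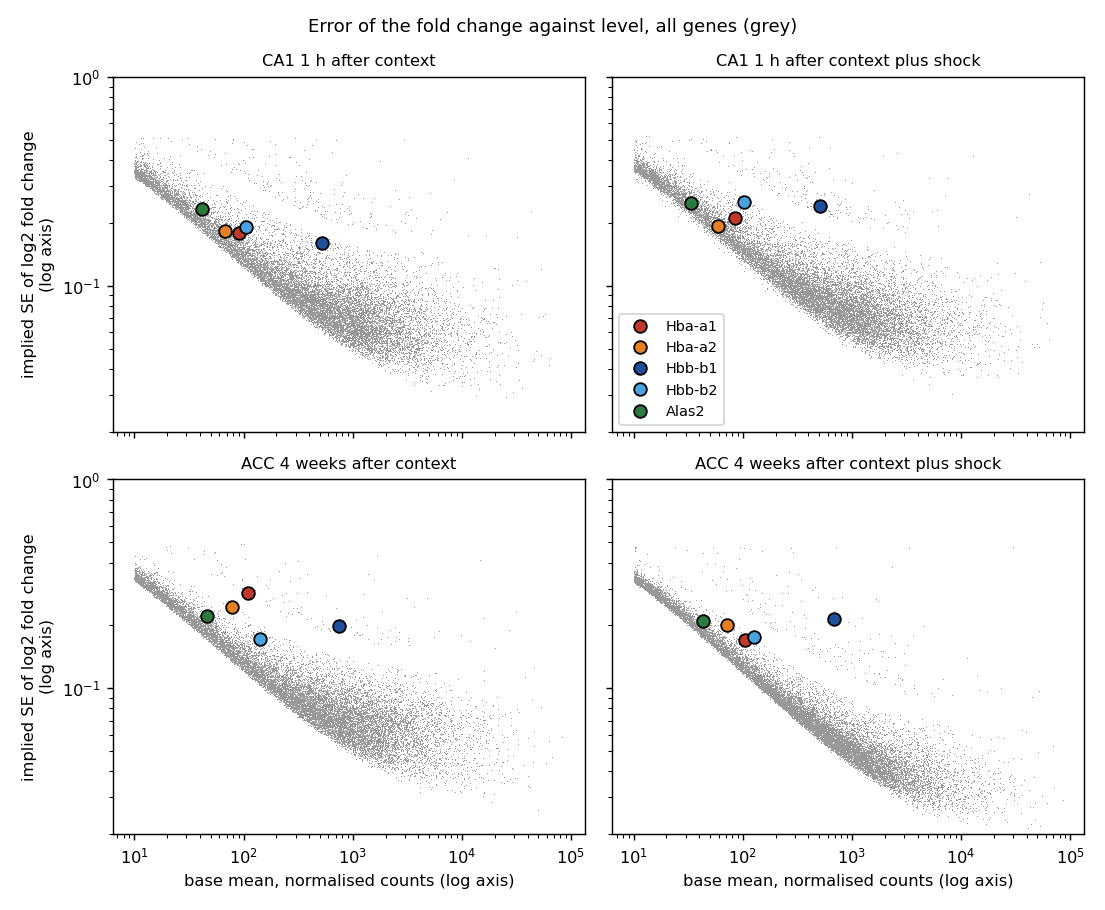
Implied SE of the log2 fold change (vertical axis) against base mean in normalised counts (horizontal axis), both on log axes, for all genes (grey) and the 5 members (colours) in the 4 comparisons. Hbb-b1 stands above nearly all genes of its level in each panel, while Alas2 lies closer to the median of genes of its level, at 1.04 to 1.18 times that median.

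Shock was set against context alone by subtracting the deposited fold changes, in which the shared naive mice cancel. All 5 genes were lower after context plus shock than after context alone in CA1 and in ACC, and none of these differences passed the adjusted threshold. In CA1 the differences ran from -0.77 to -0.089 on the log2 scale, with a median of -0.33 against -0.0069 over all genes; in ACC they ran from -0.54 to -0.33, with a median of -0.48 against -0.017. The 5 genes were measured in the same libraries, so 5 differences of 1 sign are not 5 independent observations. Context plus shock was below context for 52.7% of all genes in CA1 and 54.5% in ACC.

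Alas2 had the largest difference in CA1, -0.77 on the log2 scale (interval -1.44 to -0.10, adjusted p = 1.00). Its difference was lower than that of all but 0.0931% of genes. In CA1 0.00665% of all genes passed the adjusted threshold for this difference, and 0.991% had an unadjusted p under 0.05. Hba-a2 followed with -0.46 (interval -0.99 to 0.060) and Hba-a1 with -0.33 (interval -0.87 to 0.21). Hbb-b1 was at -0.10 (interval -0.67 to 0.47) and Hbb-b2 at -0.089 (interval -0.71 to 0.53).

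In ACC the difference was -0.54 for Hbb-b2 (interval -1.03 to -0.062, adjusted p = 0.340) and -0.48 for Hbb-b1 (interval -1.05 to 0.086, adjusted p = 0.536). For Hba-a2 it was -0.48 (interval -1.10 to 0.14), for Alas2 -0.47 (interval -1.07 to 0.13) and for Hba-a1 -0.33 (interval -0.98 to 0.32). The background was 1.59% of genes past the adjusted threshold in ACC and 12.0% with an unadjusted p under 0.05. These errors add both contrasts as if they were independent and are too wide where the naive mice are shared. With the variance halved, as for 3 equal groups with a common control, Hbb-b2 in ACC passed (adjusted p = 0.0222), as did 12.3% of all genes, and no member passed in CA1 (adjusted p of Alas2 = 0.335), where 0.0399% of genes did.

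**Figure D4:**
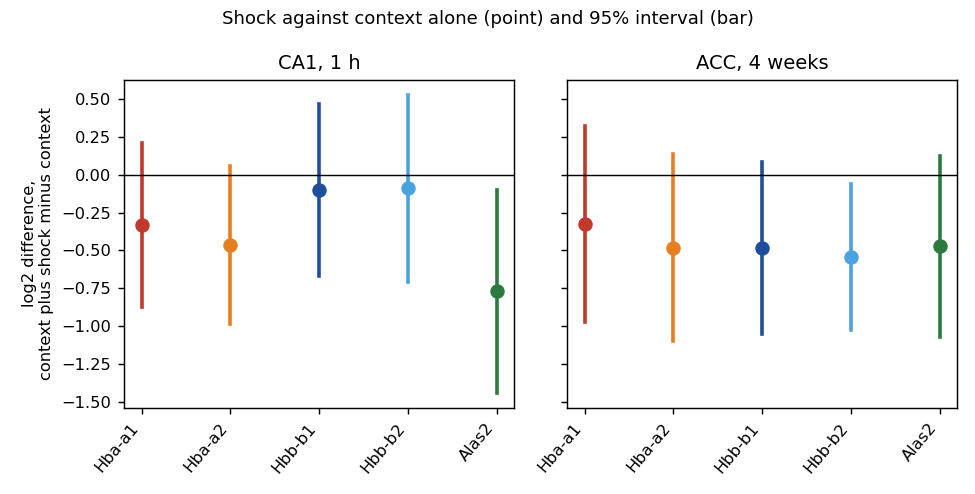
Difference of log2 fold changes, context plus shock minus context alone (vertical axis), for the 5 genes in CA1 at 1 h and ACC at 4 weeks; bars are 95% intervals with errors added as if independent. All points lie below 0, and the intervals of Alas2 in CA1 and Hbb-b2 in ACC are the ones that stay below it.

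The responses of CA1 at 1 h and ACC at 4 weeks were compared gene by gene for each training, by subtraction, with both errors added in quadrature. For context the ACC minus CA1 difference was -0.097 (Alas2) to 0.30 (Hba-a1) on the log2 scale, with adjusted p from 0.579 to 0.882. For context plus shock it was -0.29 (Hbb-b1) to 0.30 (Hba-a1), with adjusted p from 0.450 to 0.702. No member passed the adjusted threshold for this difference, and region and time cannot be told apart in this design.

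Other transcripts of red cells and of haem metabolism were examined as lists, which like the members were chosen with earlier results of these data known. Of 36 names sought as erythroid genes other than the members 15 were listed. Matching was by name, so a gene listed under an older name would not be found. The red cell genes Slc4a1, Epb42, Rhag, Klf1, Gata1 and Ahsp were sought by name but had no value in any of the 4 comparisons. Several of the 15, such as Ank1 and Sptb, are also made by neurons. In CA1 after context 2 of the 15 rose and 0 fell: Ank1, an ankyrin of the membrane skeleton, with a log2 fold change of 0.32 and Sptb, a beta spectrin, with 0.24 in the authors' deposited table. The 2 called genes were 13.3% of the list, beside 8.03% of all genes. Neither call held in CA1 after context once the length and GC trend was subtracted (0 called). In CA1 after shock 0 of 14 were called, where 6.05% of all genes were. In ACC after context 4 rose and 2 fell, 6 called genes that became 3 with the trend subtracted. The 6 were 40% of the list, beside 19.6% of all genes. In ACC after shock 3 rose and 2 fell, 33.3% of the list beside 41.6% of all genes. Ank1 and Sptb fell in ACC in the authors' deposited tables. Their log2 fold changes were -0.38 and -0.27 after context and -0.24 and -0.23 after shock. The medians of this list were -0.0018, 0.01, 0.079 and 0.042 in the 4 comparisons, beside -0.0036, -0.01, 0.0036 and 0.0063 over all genes.

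Of the 14 genes of haem synthesis other than Alas2 all were listed. None was called in CA1 after context, and 1 fell in CA1 after shock, the protoporphyrinogen oxidase gene Ppox with -0.40 per the authors' deposited table (adjusted p = 0.033). The called shares were 0% and 7.14% of the list, beside 8.03% and 6.05% of all genes. In ACC 2 rose after context, Urod, which makes coproporphyrinogen, with 0.28 and Alad, the enzyme after Alas, with 0.22 in the authors' deposited table. These 2 genes were 14.3% of the list, beside 19.6% of all genes, and their count was 1 once the length and GC trend was subtracted. After shock in ACC 6 of the 14 rose and 0 fell, 42.9% called where 41.6% of all genes were, with Ppox at 0.55 and Urod at 0.31 in the authors' deposited table. Alas1, the housekeeping counterpart of Alas2, had a base mean of 1187 to 1381 in the authors' deposited tables. Its log2 fold change was 0.11 in ACC after shock per the authors' deposited table (adjusted p = 0.0148), where that of Alas2 was -0.42 and not past the threshold. The difference between Alas1 and Alas2 was not tested.

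Genes of haem breakdown and haemoglobin scavenging were called higher for 1 of 12 genes in CA1 after context, 1 in CA1 after shock, 5 in ACC after context and 3 in ACC after shock, where 2 fell. The called gene was 8.33% of the list in each CA1 comparison, beside 8.03% and 6.05% of all genes. The 5 genes called in ACC after context were 41.7% of the list, beside 19.6% of all genes. The 5 called in ACC after shock were 41.7% of the list, beside 41.6% of all genes. With the length and GC trend subtracted the called genes went from 1 to 0 in CA1 after context and from 5 to 1 in ACC after context. Hebp1, a haem-binding protein, had a log2 fold change of 0.42 in CA1 after shock per the authors' deposited table (adjusted p = 0.0012). The inducible haem oxygenase gene Hmox1 stood between 0.011 and 0.26 in the authors' deposited tables and was not called. Of 19 iron handling genes 0 rose and 1 fell in CA1 after context and 0 and 2 in CA1 after shock. In ACC 1 rose and 1 fell after context and 4 and 5 after shock. The called shares were 5.26%, 10.5%, 10.5% and 47.4% of the list in this order. Beside them stood 8.03%, 6.05%, 19.6% and 41.6% of all genes. With the length and GC trend subtracted, 0 iron handling genes were called in ACC after context and 3 in ACC after shock. The transferrin receptor gene Tfrc, through which cells take up iron, fell by 0.28 and 0.25 on the log2 scale in CA1 after context and shock and by 0.53 in ACC after shock in the authors' deposited tables. In ACC after context its log2 fold change was -0.21, not past the threshold, in the authors' deposited table. Among globins of other tissues, neuroglobin (Ngb), a globin of neurons, had log2 fold changes of 0.73 and 0.65 in ACC after context and shock in the authors' deposited tables, both called. In CA1 Ngb stood at -0.024 and -0.28 in the authors' deposited tables and was not called. Cygb, another gene of this list, was called in CA1 after context (0.25) and in ACC after shock (0.34) in the authors' deposited tables. It was not called in CA1 after shock (0.19) or in ACC after context (0.22). The called share of the 2 listed genes in CA1 was 50% and 0%, beside 8.03% and 6.05% of all genes. Of the 3 listed in ACC it was 33.3% and 66.7%, beside 19.6% and 41.6%.

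Markers of the vessel wall and of other blood cells were set beside the globins, since red cells lie within vessels. Of 21 endothelial markers 10 rose and 1 fell in CA1 after context, and 8 rose and 0 fell in CA1 after shock. The called markers were 52.4% and 38.1% of the list, beside 8.03% and 6.05% of all genes. The member medians there were 0.14 and -0.32. In ACC after context 1 of 21 rose and 1 fell, 9.52% beside 19.6% of all genes. In ACC after shock 17 of 21 fell and 1 rose, 85.7% beside 41.6% of all genes. The list median in ACC after shock was -0.35, beside the member median of -0.18. The junction gene Cldn5 had log2 fold changes of 0.78, 0.88, 0.42 and 0.64 in the 4 comparisons in the authors' deposited tables, and Pecam1, another endothelial marker, 0.46, 0.56, 0.024 and -0.29. Of 14 pericyte and smooth muscle markers 2 rose in CA1 after context (1 called with the length and GC trend subtracted) and 4 in CA1 after shock. These counts were 14.3% and 28.6% of the list, beside 8.03% and 6.05% of all genes. In ACC after context 0 of 14 were called, where 19.6% of all genes were. In ACC after shock 1 rose and 5 fell, 42.9% of the list beside 41.6% of all genes. The part of vessel content in the globin values was not tested.

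**Figure D5:**
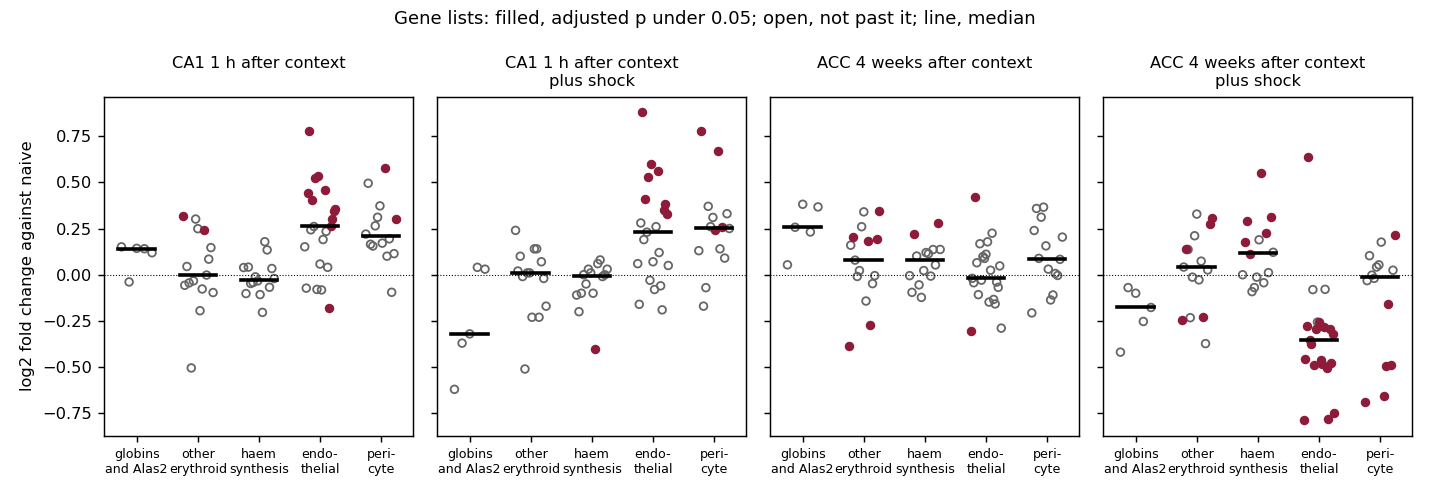
Log2 fold change against naive mice (vertical axis) of each listed gene in 5 gene groups (horizontal axis) and the 4 comparisons (panels); filled points passed an adjusted p of 0.05, open points did not, and lines are medians. No globin gene or Alas2 is filled in any panel. Endothelial markers lie mostly above 0 in CA1 after either training. In ACC after shock 17 of 21 were called lower, beside 21.8% of all genes.

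Of 26 leukocyte markers 4 had a value in CA1 and 5 in ACC, and Cd4 alone was called, higher in ACC after context (log2 1.02) and after shock (0.83) in the authors' deposited tables. This was 20% of the listed markers in each ACC comparison, beside 19.6% and 41.6% of all genes. In CA1 the share was 0%, beside 8.03% after context and 6.05% after shock. The pan-leukocyte gene Ptprc, which microglia also express, had log2 fold changes between -0.084 and 0.14 in the authors' deposited tables and was not called. Of 12 platelet markers 5 or 6 had a value, with summed base means of 138 to 256 normalised counts. Alox12 (0.83 in ACC after context) and Itga2b (0.46 in ACC after shock) rose in the authors' deposited tables, and no platelet marker was called in CA1. The 1 called platelet marker was 16.7% of those listed in each ACC comparison, beside 19.6% and 41.6% of all genes. Subtracting the length and GC trend left 0 platelet markers called in either ACC comparison. Of 13 genes that lie beside the globin and Alas2 loci none was called in CA1 after context or after shock, where 8.03% and 6.05% of all genes were. In ACC 2 rose and 1 fell after context, 23.1% of the list beside 19.6% of all genes. After shock 4 rose and 2 fell there, 46.2% of the list beside 41.6% of all genes. Subtracting the length and GC trend left 1 called after context and 3 after shock. Among them Nprl3, whose introns hold the alpha globin enhancers, had log2 fold changes of -0.054 and -0.15 in CA1 and 0.11 and 0.19 in ACC in the authors' deposited tables, the last one called (adjusted p = 0.0021).

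Genes whose 4 fold changes were most like the members' medians (0.14, -0.32, 0.26 and -0.18) were sought among 12288 genes with a base mean of at least 50 in all tables, by Euclidean distance over the 4 log2 values, which share naive mice within a region. The closest were Prkg2, a cGMP-dependent kinase gene, at a distance of 0.13, Gpr30 at 0.15, Id1, an inhibitor of basic helix-loop-helix factors, at 0.19, Wnt10a at 0.22 and Hpcal1 at 0.24. The members themselves lay at 0.15 (Hba-a2) to 0.44 (Alas2) from their median. Of these 5 genes Hpcal1 alone was called in any comparison, with -0.35 in CA1 after shock per the authors' deposited table (adjusted p = 0.0411). No exonic bin of a globin gene or of Alas2 was among the 194, 189, 4647 and 2699 bins that the authors' deposited exon tables list for the 4 comparisons at an adjusted p under 0.1.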

How the data were processed

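The 29 libraries were grouped by their titles. The submitters' processing notes name DESeq2, SAMtools, STAR 2.3.0e, CASAVA 1.8.2 and mm10, without their roles; no source used here states annotation, strand or read length. The authors deposited 4 tables of genes and 4 of exonic bins, with no value per library. Each holds, per the file headers, the base mean as a normalised count signal. The authors' log2 fold change is given too, with its deposited p-value, raw and adjusted. The authors' adjusted p was used as the test, called under 0.05. Deposited adjusted p-values matched a Benjamini-Hochberg adjustment over all listed genes to within 0.0022. The lowest base mean was 10.0 in each table.

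The SE was implied by dividing the absolute log2 fold change by the z value of its p, as for a Wald test. The CA1 shock table is rounded to 2 decimals; there, fold changes under 0.025 took the context SE times 1.08. Group levels follow from base mean, fold change and group sizes. Differences used a two-sided normal p, adjusted over all genes of both tables. Levels per kb used the longest GENCODE M21 transcript; the length and GC trend was a spline with 5 knots. The steps were tested on simulated data. Members and the 13 gene lists (208 entries) were chosen with earlier results of these data known. Named genes were all members, up to 4 called genes of smallest p per list and table, the 5 of nearest pattern, and Cldn5, Pecam1, Ptprc and Alas1; Hmox1, and called genes given again in tables where they were not called, were named after the values were seen. Labels do not tell mice from technical replicates, so p-values measure spread between libraries. Promoters came from RefSeq (GRCm38.p6), where all 5 members matched. The tools were matplotlib 3.10.9, pandas 2.3.3 and Python 3.11.15, with scipy 1.17.1 for tests, sklearn 1.9.0 for splines and numpy 2.4.6.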

Additional observations from a re-analysis of the deposited data

How the results depend on the processing

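No member was called under an adjusted p of 0.01, over genes with a base mean of at least 50, with the median of all genes subtracted, or with an absolute log2 of at least 0.25, in any of the 4 comparisons. In ACC after shock 1 member was called at an adjusted p under 0.1 and 1 with the length and GC trend subtracted, which was Alas2 both times; the cause was not tested. Subtracting that trend turned Alas2 in ACC after context from 0.054 to -0.046 and lowered the count of called list genes there from 30 to 15. Between shock and context, 1 member (Hbb-b2 in ACC) was called with the variance halved, against 0 with errors added. No paired analysis was possible because the tables hold no value per library, and for the same reason no replicate could be left out. Alas2, below 50 base mean, has no value under that filter. Library depth is unknown, and the implied errors do not separate spread between libraries from counting error.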
